A study of Mus musculus with 6 samples.

Results

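The colony stimulating factor (CSF) family covers the ligands Csf1, Il34 and Csf2 and the receptor genes Csf1r, Csf2ra, Csf2rb, Csf2rb2 and Csf3r. These 8 genes were taken by symbol from a count table of 42303 genes, and all 8 were found. They were compared between microglia taken at peak disease in experimental autoimmune encephalomyelitis (EAE) and microglia of naive mice. Both groups were Ccr2rfp/+::Cx3cr1gfp/+ mice on the C57Bl/6 background, so 1 copy each of Ccr2 and Cx3cr1 carried a fluorescent reporter in peak and naive animals alike. In the peak group EAE, a model of multiple sclerosis, was induced at 24 to 28 weeks of age with residues 35 to 55 of myelin oligodendrocyte glycoprotein (MOG), and peak was taken from the daily clinical score. The naive group was collected before induction. Cells were sorted on F4/80 and CD45 after a 30% and 70% Percoll gradient, and cells of 30 mice were pooled per condition. The labels name brains in one place and brains with spinal cords in another, and give neither the sort gate nor the ages of the naive mice. RNA was sequenced in 1 library per condition (36561934 counts at peak and 31282093 counts in naive cells). Methylated DNA came from MiGS, which pulls down fragments with methylated CG pairs on a binding protein and sequences them, in 2 libraries per condition.

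CSF1 (macrophage CSF) and interleukin 34 are separate ligands of one receptor tyrosine kinase, CSF1R, on which microglia depend for their survival. GM-CSF, the product of Csf2, binds an alpha chain (Csf2ra) that pairs with the common beta chain (Csf2rb), which interleukin 3 and interleukin 5 receptors also use. Mice have a further beta chain, Csf2rb2, which serves interleukin 3. Csf3r encodes the receptor of G-CSF, the growth factor of neutrophils, and GM-CSF made by T cells is known to be needed for EAE.

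The sorted cells carried microglial RNA in both libraries. Of the 6 microglial markers P2ry12, Tmem119, Cx3cr1, Sall1, Siglech and Fcrls, none had fewer than 14308 counts at peak or 20851 counts in naive cells. Microglial markers were lower at peak, with a median log2 ratio of -0.92 over the 7 measured. Of these 2 were at least 2-fold lower, against 9.35% of all genes, and 0 higher. Of 8 monocyte markers 7 were at least 2-fold higher at peak, against 11.6% of all genes. The 8 markers summed to 1101 CPM (counts relative to the scaled library total) at peak and 47.5 CPM in naive cells. In counts this was 39031 at peak and 1531 in naive cells, most of it from Fn1, whose own counts are given below. T cell markers summed to 11.8 CPM at peak and 3.87 CPM in naive cells, and neutrophil markers to 23.2 CPM at peak and 19.03 CPM in naive cells. In such bulk RNA, more cells of a type and more RNA per cell cannot be told apart. The part of monocytes, T cells or neutrophils in the values below was not tested.

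Among the promoters examined, captured methylated DNA was found at that of Csf2ra. RefSeq (GRCm38.p6) gave promoters for 5 of the 8 genes. Csf1r, Csf2rb and Il34 are named only. The 250 bases before the start site of Csf2ra and of Csf1 are shown because both hold many CG pairs, which are in capitals, and captured reads overlay only the Csf2ra stretch. The Csf2ra stretch lies on the minus strand at chr19:61228419-61228668 and the Csf1 stretch on the minus strand at chr3:107760470-107760719.
Csf2ra: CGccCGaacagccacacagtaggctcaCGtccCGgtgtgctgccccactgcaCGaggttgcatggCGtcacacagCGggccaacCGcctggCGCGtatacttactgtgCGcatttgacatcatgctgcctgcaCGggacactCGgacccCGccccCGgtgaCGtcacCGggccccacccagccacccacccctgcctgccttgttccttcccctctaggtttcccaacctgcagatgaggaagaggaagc
Csf1: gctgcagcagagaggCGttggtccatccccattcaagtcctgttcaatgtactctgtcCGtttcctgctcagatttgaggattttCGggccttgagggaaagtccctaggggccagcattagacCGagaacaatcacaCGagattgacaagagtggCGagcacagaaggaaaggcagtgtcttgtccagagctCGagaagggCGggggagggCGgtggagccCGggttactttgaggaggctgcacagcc
The Csf2ra stretch holds 17 CG pairs and the Csf1 stretch 10. Reads over a stretch are sums over 50 bp windows, so 1 fragment can count more than once. Over these 250 bases Csf2ra had 20 and 18 reads in the peak libraries and 26 and 22 reads in the naive libraries. All 4 libraries thus held reads. Csf1 had 0 reads in each of the 4 libraries, as did the promoters of Csf2 (2 CG pairs), Csf2rb2 (3) and Csf3r (6). Of 6225 promoters with at least as many CG pairs as Csf2ra, 2.78% held reads in all 4 libraries, and 91.9% held none. Windows of 50 bp listed in 1 library alone held at least 3 reads, so the files leave out sparse windows and a 0 is not a bounded zero.

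The ligands of CSF1R ran in opposite directions. Csf1 (ENSMUSG00000014599, chr3:107741048-107760469) had 5084 counts at peak and 1094 counts in naive cells, or 26.3 FPKM at peak and 6.62 FPKM in naive cells. FPKM is the authors' count per kilobase, scaled to the library total. The gene length behind it is shorter than the genomic span printed here, and "per length" below refers to that shorter length. Scaled by TMM, a factor that sets the bulk of genes equal, Csf1 was 4.23-fold higher at peak, with a 95% interval of 3.96 to 4.52 (Clopper-Pearson, counting error only). With 1 library per condition no ratio in RNA has a replicate check or a test. Il34 (ENSMUSG00000031750, chr8:110741829-110805949) had 16 counts at peak and 49 counts in naive cells, or 0.223 FPKM at peak and 0.7996 FPKM in naive cells. It was 3.30-fold lower at peak, and its interval of 1.88 to 6.34 begins below 2-fold. Per length, Csf1 stood above Il34 by a factor of 118 at peak (interval 72.5 to 206) and 8.28 in naive cells (6.22 to 11.3). Markers of neurons, which make interleukin 34 in the brain, summed to 10.3 CPM at peak and 11.5 CPM in naive cells, and those of astrocytes to 431 CPM at peak and 873 CPM in naive cells.

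**Figure D1:**
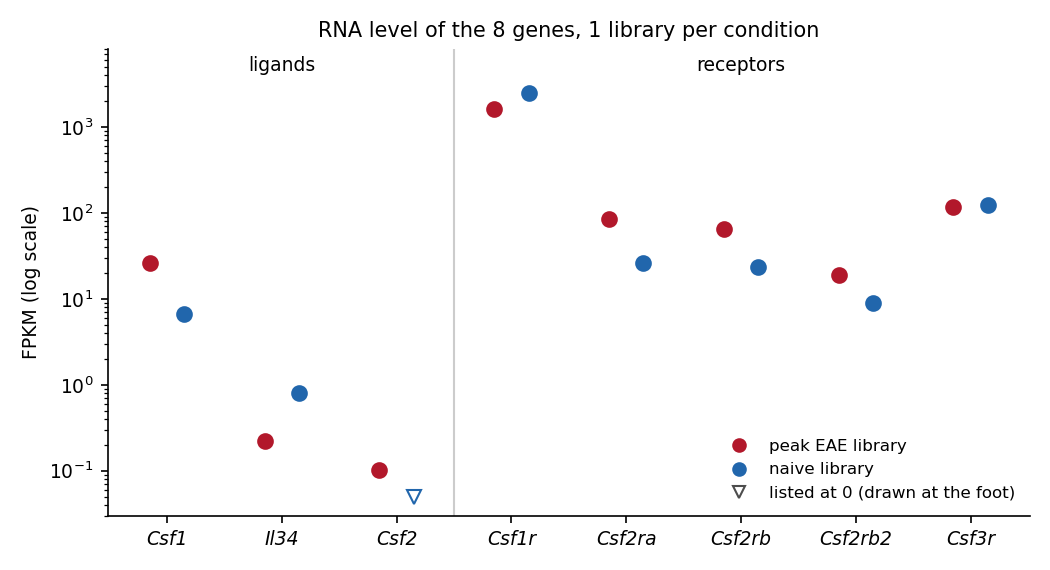
RNA level in FPKM (log scale) of the 3 ligand and 5 receptor genes, peak library left and naive library right of each pair, 1 point per library. Csf1r is highest in both libraries, and Csf1, Csf2ra, Csf2rb and Csf2rb2 lie higher at peak. Csf2 is listed at 0 in naive cells and is drawn at the foot of the axis.

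Csf2 RNA was near the limit of detection. Csf2 (ENSMUSG00000018916, chr11:54247270-54249899) had 3 counts at peak (Poisson interval 0.619 to 8.77) and 0 counts in naive cells (0 to 3.69). No fold is given, because neither library exceeds 3 counts, and the gene stayed out of the genes compared. The T cell receptor subunit genes Cd3g and Cd3d, in the same libraries, had 21 and 17 counts at peak and 0 and 1 counts in naive cells. A further subunit gene, Cd3e, had no more than 3 counts in either library. Csf3, the ligand of Csf3r and no member here, had 1 count in each library.

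Csf1r was the most abundant member. Csf1r (ENSMUSG00000024621, chromosome 18) had 284975 counts at peak and 376787 counts in naive cells, which is 0.779% of all counts at peak and 1.20% in naive cells. In FPKM it had 1596 at peak and 2466 in naive cells, rank 23 at peak and rank 11 in naive cells among all genes. It was 1.45-fold lower at peak (interval 1.45 to 1.46), short of 2-fold. Its log2 ratio of -0.54 ranged from -0.68 to -0.47 over the other scalings, beyond that counting interval. Csf1r differed less between the libraries than P2ry12 and Tmem119, which are read as marks of resting microglia. P2ry12 had 60990 counts at peak and 115890 counts in naive cells, and Tmem119 had 74977 counts at peak and 128048 counts in naive cells. The 7 measured microglial markers had a median log2 ratio of -0.92, and not all of them fell further than Csf1r. Per length, Csf1r exceeded its ligand Csf1 by a factor of 60.6 at peak (interval 58.9 to 62.3) and 372 in naive cells (351 to 395).

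The GM-CSF receptor chain genes Csf2ra and Csf2rb and the interleukin 3 beta chain gene Csf2rb2 were each at least 2-fold higher at peak. Csf2ra (ENSMUSG00000059326, chr19:61217191-61228461) had 5738 counts at peak and 1513 counts in naive cells and was 3.45-fold higher (interval 3.26 to 3.66). Csf2rb (ENSMUSG00000071713, chr15:78325800-78351001) had 11279 counts at peak and 3518 counts in naive cells and was 2.92-fold higher (2.81 to 3.03). Csf2rb2 (ENSMUSG00000071714, chr15:78282507-78305721) had 3196 counts at peak and 1299 counts in naive cells and was 2.24-fold higher (2.10 to 2.39). The counting intervals of these 3 ratios do not overlap each other, with the alpha chain highest. They hold counting error only, from 1 library per condition, so this order was not tested. The beta chain genes are close paralogs 20079 bp apart, so reads may have been split between them.

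In FPKM, the alpha chain Csf2ra had 84.9 at peak and 26.2 in naive cells, and the common beta chain Csf2rb 64.8 at peak and 23.6 in naive cells. The alpha over beta ratio per length was 1.31 at peak (interval 1.27 to 1.35) and 1.11 in naive cells (1.04 to 1.18), so the chains stood close in both libraries. Csf2rb2 had 18.95 FPKM at peak and 9.004 FPKM in naive cells, and Csf2rb exceeded it by a factor of 3.42 at peak and 2.62 in naive cells. Per length, Csf1r exceeded Csf2rb by a factor of 24.6 at peak and 104 in naive cells. Monocytes also carry these chains, and 7 of 8 monocyte markers were at least 2-fold higher at peak, against 11.6% of all genes. Among them Fn1 had 35840 counts at peak and 816 counts in naive cells. Ly6c2 had 338 counts at peak and 5 counts in naive cells. The part of monocytes in the RNA of these chains was not tested.

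Csf3r differed little between the libraries. Csf3r (ENSMUSG00000028859, chr4:126023441-126044975) had 15606 counts at peak and 13907 counts in naive cells, or 118 FPKM at peak and 123 FPKM in naive cells. Its ratio was 1.02-fold (interval 0.998 to 1.05), a log2 ratio of 0.03, which turned to -0.06 with library totals and -0.11 with upper quartile scaling. It was the second most abundant member per length in both libraries. The 9 neutrophil markers summed to 824 counts at peak and 614 counts in naive cells. Among them Ly6g had 2 counts at peak and 0 counts in naive cells, and S100a8 had 247 counts at peak and 151 counts in naive cells. Of the 7 measured, 2 were at least 2-fold higher at peak and 2 lower, against 11.6% and 9.35% of all genes. The part of neutrophils in Csf3r RNA was not tested.

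Of the 7 members with at least 50 counts over both libraries, 4 (Csf1, Csf2ra, Csf2rb and Csf2rb2) were at least 2-fold higher at peak, against 11.6% of all 14367 genes compared. Il34 alone was at least 2-fold lower, against 9.35% of all genes. In either direction these are 5 of 7 members, against 21.0% of all genes. Csf1r and Csf3r were neither, and Csf2 was not compared. Ratios higher than that of Csf1 were found in 4.79% of all genes, and ratios higher than those of Csf2ra, Csf2rb and Csf2rb2 in 5.78%, 6.79% and 9.65% of all genes. The order per length at peak was Csf1r, Csf3r, Csf2ra, Csf2rb, Csf1, Csf2rb2, Il34 and Csf2. In naive cells Csf1 (6.62 FPKM) stood below Csf2rb2 (9.004 FPKM), and the rest of the order was the same.

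**Figure D2:**
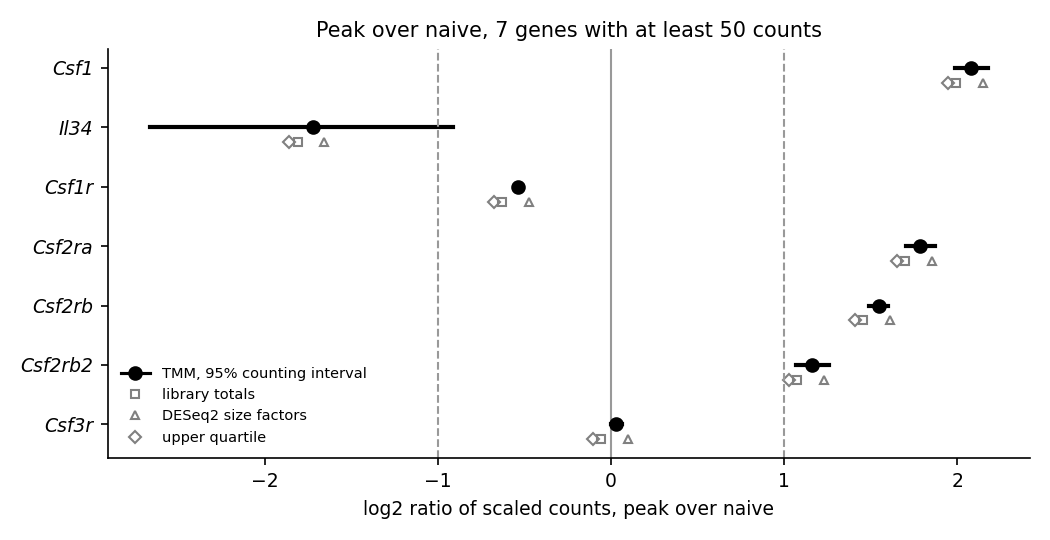
Log2 ratio of scaled counts, peak over naive, for the 7 members with at least 50 counts. Black points are TMM values with 95% counting intervals, open grey marks are other scalings, and dashed lines are 2-fold. The 4 genes right of the dashed line stay there under each scaling drawn, with Csf2rb2 nearest to it, and only the marks of Csf3r lie on both sides of 0.

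Genes with the most similar levels over the 2 libraries, by distance of log2 CPM, were found among 11879 candidates. For Csf1r, Cst3, which encodes cystatin C, lay at a distance of 0.54, with 195967 counts at peak and 360614 counts in naive cells. Csf1 lay nearest to the interferon-induced GTPase gene Gbp9 (0.091) and to Ly9 (0.10). Csf2ra lay nearest to Cbx5 and Gnptab, Csf2rb to Mapkapk2 and Trim30a, Csf2rb2 to Eif1a and Rpl14, Csf3r to Itgb1 and Akap13, and Il34 to Rarres2 and Rgs6. With 2 libraries such likeness is a description of level alone.

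Genes that carry the CSF1R signal inside the cell stayed within 2-fold. Of 20 such genes 0 were at least 2-fold higher and 0 lower, against 11.6% and 9.35% of all genes. Their median log2 ratio was -0.04 against -0.0024 over all genes. The median turned to 0.03 with DESeq2 size factors. The kinase gene Pik3cg was 1.69-fold lower at peak, Syk 1.63-fold lower and the ubiquitin ligase gene Cbl 1.56-fold lower, while the phosphatase gene Ptpn6 was 1.54-fold higher. Tyrobp, the adaptor that links CSF1R and TREM2 to Syk, was 1.33-fold higher. Of 10 transcription factors known at the Csf1r locus, 1 was higher and 0 lower (median 0.16), against the same shares of all genes. That gene was Cebpb (2.30-fold). Egr1 was 1.98-fold higher and passed 2-fold with DESeq2 size factors, Egr2 was 1.59-fold higher, and Cebpa was 1.53-fold lower. Spi1, which encodes PU.1, the main activator of Csf1r, had 6794 counts at peak and 5940 counts in naive cells (1.04-fold).

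A list of GM-CSF and common beta chain signalling genes, which also holds other ligands and alpha chains that use the beta chain, included large differences. Of its 12 measured genes 6 were higher, against 11.6% of all genes, and 0 were lower, with a median log2 ratio of 1.14, and these counts were the same under the 3 other scalings. The kinase gene Pim1, a STAT5 target, had 4984 counts at peak and 245 counts in naive cells (18.5-fold higher, interval 16.3 to 21.1). Il3ra, the alpha chain of the interleukin 3 receptor, had 473 counts at peak and 48 counts in naive cells (8.89-fold, 6.66 to 12.3). The feedback inhibitor genes Socs1, Socs3, Cish and Socs2 were 8.03-fold, 6.74-fold, 4.97-fold and 3.38-fold higher. Several other cytokines induce these inhibitors too. The signal carriers themselves lay within 2-fold, with Jak2 at 1.35-fold and Stat5a at 1.21-fold higher and Stat5b at 1.20-fold lower. Il3 and Il5 had 0 counts in both libraries, and Il5ra had 1 count at peak and 0 counts in naive cells.

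Myeloid genes that respond to GM-CSF went both ways. Of 8 measured, 3 were higher and 3 lower (median 0.22), against 11.6% and 9.35% of all genes. Itgax, which encodes CD11c, was 9.95-fold and Il1b 9.65-fold higher, and Id2 was 2.09-fold higher. Irf4 was 2.35-fold lower, the lectin gene Cd209a 2.70-fold and Flt1 2.001-fold. Flt1 is also among the endothelial markers, of which 5 of 6 were lower and 0 higher, against the same shares of all genes. Cd209a is also among the dendritic cell markers, of which 2 of 4 measured were lower and 0 higher, against the same shares. The part of such cells in these values was not tested. Id2 fell short of 2-fold with library totals and with upper quartile scaling, and Flt1 with DESeq2 size factors. Ccl22, with too few counts to be compared, had 35 counts at peak and 3 counts in naive cells. Of the G-CSF axis only Stat3 (1.35-fold higher) and Jak1 (1.31-fold lower) were measured, and Mpo and Elane had 0 counts in both libraries.

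**Figure D3:**
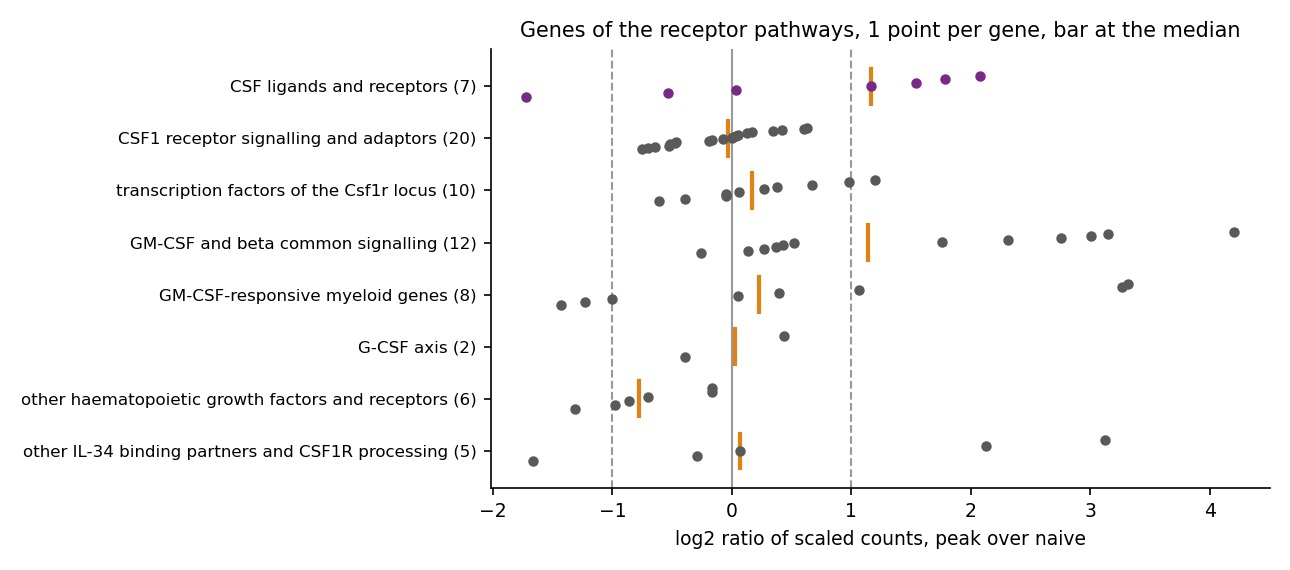
Log2 ratio of scaled counts, peak over naive, 1 point per gene with at least 50 counts, with the number of genes in brackets. Orange bars are medians and dashed lines are 2-fold. The CSF1 receptor signalling genes lie between the dashed lines, and 6 of the 12 GM-CSF signalling genes lie to the right of them.

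Among other growth factor receptors and ligands 0 of 6 measured genes were higher and 1 was lower, against 11.6% and 9.35% of all genes. Their median log2 ratio was -0.78. Pdgfrb, like Csf1r a class III receptor tyrosine kinase gene and a marker of pericytes, was 2.48-fold lower. Il7r was 1.97-fold lower and passed 2-fold with library totals and upper quartile scaling. Of 5 genes of interleukin 34 binding and receptor processing, 2 were higher and 1 lower, against the same shares of all genes. Their median of 0.07 turned to -0.02 with library totals and -0.07 with upper quartile scaling. Sdc1, which encodes syndecan 1, had 119 counts at peak and 12 counts in naive cells (8.70-fold higher). Rhbdf2, the partner of the protease ADAM17 that sheds CSF1R, was 4.37-fold higher, and Adam17 itself 1.05-fold. Ptprz1, a receptor of interleukin 34 made by astrocytes and oligodendrocyte precursors, was 3.16-fold lower. Of 7 astrocyte markers 5 were at least 2-fold lower, against 9.35% of all genes, and 1, Gfap, was 2.63-fold higher.

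Captured methylated DNA was then summed at each member, over both gene ends (1000 bp outside to 500 bp inside) and over the gene body between them. Signal is the authors' read count divided by a size factor of the library, given here per kb with SD over n = 2 libraries. No gene end of 10607 and no gene body of 16585 passed an adjusted p of 0.05 in either direction (limma, two-sided, 0% called). At an unadjusted p under 0.05 there were 562 gene ends and 509 gene bodies, edgeR (451 and 498) and DESeq2 (376 and 639) also called 0 after adjustment when fitted without a block. The 5 members tested at gene ends had adjusted p between 0.908 and 0.957, and the 8 tested as gene bodies between 0.958 and 0.996. Changes of the sizes seen could not be separated from the spread between libraries.

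The gene bodies of the members differed widely in level. Csf2ra had 23.4 and 38.2 per kb in the peak libraries and 29.1 and 40.1 per kb in the naive libraries (30.8 ± 10.5 at peak and 34.6 ± 7.77 in naive), and on its mean stood above 82.4% of tested gene bodies. Il34 had 17.9 and 16.3 per kb in the peak libraries and 17.7 and 30.1 per kb in the naive libraries. At the low end, Csf3r had 0.806 and 0 per kb in the peak libraries and 0 and 0.678 per kb in the naive libraries, above 0.615% of gene bodies. Csf1 had 1.22 and 0.666 per kb in the peak libraries and 0.494 and 1.33 per kb in the naive libraries. In each of these 4 genes the peak and naive values overlapped.

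The paralogous beta chain genes differed from each other in capture in each of the 4 libraries. Csf2rb2 had 10.4 and 14.2 per kb in the peak libraries and 12.3 and 16.3 per kb in the naive libraries. Csf2rb had 1.71 and 1.01 per kb in the peak libraries and 1.22 and 3.31 per kb in the naive libraries. The Csf2rb2 body thus carried 6.10 and 14.0 times the signal of Csf2rb in the peak libraries and 10.1 and 4.91 times in the naive libraries. Capture also depends on the density of CG pairs, which was not analysed here for gene bodies.

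**Figure D4:**
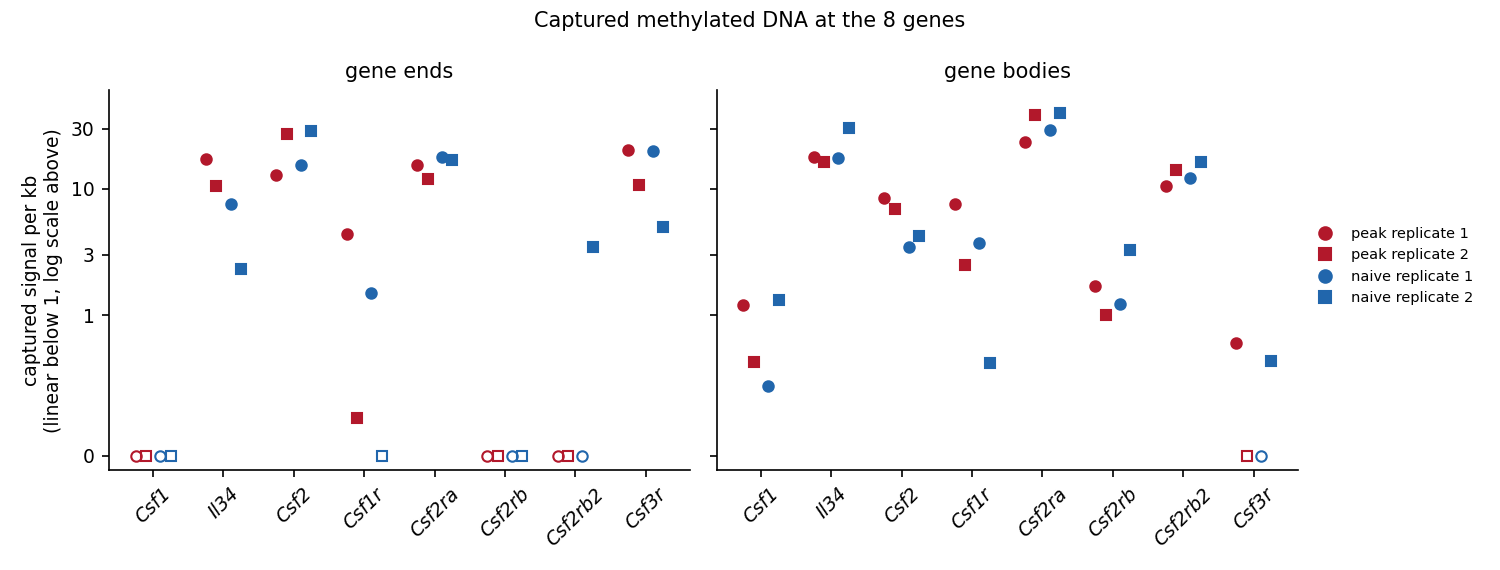
Captured signal per kb at gene ends (left panel) and gene bodies (right panel) of the 8 members, 1 point per library, peak libraries left of naive libraries. The axis is linear below 1 and logarithmic above, and open marks are 0. Csf2ra and Il34 bodies are high and those of Csf1 and Csf3r low in the 4 libraries, and peak and naive points overlap for most genes.

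Csf1r had 7.61 and 2.49 per kb over its body in the peak libraries and 3.74 and 0.661 per kb in the naive libraries (log2 change 1.43, SE 0.77, limma adjusted p = 0.958). Replicate 1 was the higher library within each condition, and the groups overlapped. Csf2 had 8.53 and 6.93 per kb in the peak libraries and 3.44 and 4.22 per kb in the naive libraries. These values rest on 42 reads summed over windows. Both peak values lay above both naive values (log2 change 0.91, SE 1.44, limma adjusted p = 0.964).

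At gene ends, Il34 had 17.4 and 10.6 per kb in the peak libraries and 7.57 and 2.32 per kb in the naive libraries (log2 change 1.60, SE 0.85, limma adjusted p = 0.908). Both peak values lay above both naive values, and naive replicate 2 was lowest. Csf2ra had 15.5 and 11.98 per kb in the peak libraries and 17.8 and 17.0 per kb in the naive libraries (log2 change -0.35, SE 0.59, limma adjusted p = 0.929). Both peak values lay below both naive values there. The groups thus did not overlap at 2 of the 5 tested gene ends, against 32.9% of all gene ends, and at 1 of the 8 gene bodies, against 27.5% of all gene bodies. Csf2 had 13.0 and 26.9 per kb in the peak libraries and 15.5 and 28.7 per kb in the naive libraries, with its highest window 0.727 kb before its start site. Csf3r had 20.4 and 10.7 per kb in the peak libraries and 20.1 and 4.95 per kb in the naive libraries, with its highest window inside the annotated span but 0.933 kb before the start site of the promoter table. Csf1 and Csf2rb had 0 reads at both ends in the 4 libraries. The highest Csf1 window lay beyond these ends, 1.46 kb before its start site. It held 16 and 4 reads in the peak libraries and 3 and 1 reads in the naive libraries. Csf2rb2 had 9 reads summed over windows, all in naive replicate 2.

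Signal within Csf2rb2 and Il34 lay in short stretches. In Csf2ra, windows listed in any library ran on without a gap from chr19:61224651 to chr19:61226650. In Csf2ra the highest window was 3.04 kb after the start site (chr19:61225351-61225400), with 13 and 40 reads in the peak libraries and 19 and 37 reads in the naive libraries. In Csf2rb2 it was 10.05 kb after the start site (chr15:78295651-78295700), with 22 and 55 reads in the peak libraries and 31 and 60 reads in the naive libraries. In both windows replicate 2 was the higher library within each condition. In Il34 the highest window (chr8:110767701-110767750) had 28 and 75 reads in the peak libraries and 47 and 200 reads in the naive libraries, with naive replicate 2 far above the rest.

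**Figure D5:**
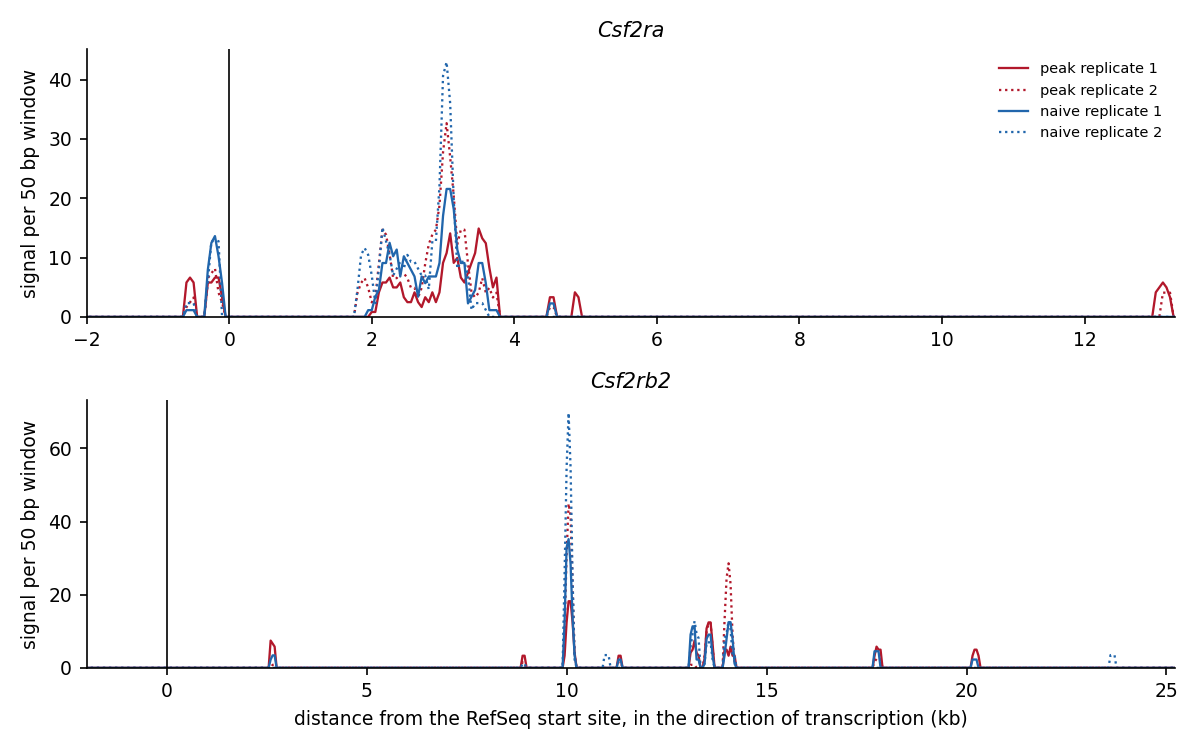
Captured signal per 50 bp window along Csf2ra and Csf2rb2, by distance in kb from the RefSeq start site in the direction of transcription, 1 line per library. Csf2ra has signal just before its start site and a broad main stretch, highest about 3.04 kb after it. Csf2rb2 has none at its start site and a short main stretch about 10.05 kb after it. Both hold in peak and naive libraries alike.

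The 5 promoters were searched on both strands, over 250 bases before the start site, for GAGGAAGT (PU.1), TTCNNNGAA (STAT), GGGANTTCC (NF-kappa-B), TGANTCA (AP-1) and an interferon response motif (GAAA, any 2 bases, GAAA). The one match was TTCTGAGAA in the promoter of Csf2rb2 (minus strand, chr15:78305722-78305971), shown with the match in capitals because STAT proteins carry the signal of this receptor family.
Csf2rb2: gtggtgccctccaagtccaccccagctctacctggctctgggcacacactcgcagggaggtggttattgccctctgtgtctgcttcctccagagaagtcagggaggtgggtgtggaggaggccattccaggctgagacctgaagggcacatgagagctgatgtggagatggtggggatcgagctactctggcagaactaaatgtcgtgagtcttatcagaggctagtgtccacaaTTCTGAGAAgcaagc
The STAT letters occur in 7.18% of 27018 promoters of this length, those of PU.1 in 2.44%, NF-kappa-B in 1.42%, AP-1 in 6.87% and interferon response in 3.04%.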

How the data were processed

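For RNA-seq the authors deposited raw counts and FPKM values for each Ensembl gene, per the file headers; FPKM was computed from library totals. Bowtie2, TopHat, featureCounts and edgeR with build mm10 are named in the submitters' processing notes, with no roles. The kit marks strand, per the labels' protocols; whether counting used it is not stated, so overlapping antisense genes cannot be told apart. The MiGS signal deposited by the authors is reads per 50 bp window divided by a size factor: 100% of values came out as whole reads (tolerance 0.001). Chromosomes 1 to 19 were analysed. Ratios used TMM (edgeR 4.0.16) over genes with at least 50 counts, with 0.5 added to each count; symbols were missing for 506 genes. MiGS sums over RefSeq genes with at least 20 reads over 4 libraries (reads over windows 35285601 to 43970332 at peak and 30424742 to 36501153 in naive) were tested with limma 3.58.1 on log2(value + 1), with a variance trend and Benjamini-Hochberg adjustment; a fold on this scale understates low genes. On recovered reads, edgeR called 0 gene ends and 0 gene bodies without a replicate block; DESeq2 1.42.0 was also run. Neighbouring windows share fragments, so reads given over a stretch are window sums and exceed the number of fragments. The labels speak of 2 biological replicates for MiGS, with no word on the animals behind each, so p-values measure the spread between libraries. Named genes were the 8 members, 2 nearest genes per member and up to 4 genes per list by size of ratio; 1 such gene is not reported here, and a few others of the lists are named beside them, chosen after their values were seen. Members and lists were chosen with earlier results of these data known. Steps were tested on simulated data (R 4.3.3, Python 3.11.15, scipy 1.17.1).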

Additional observations from a re-analysis of the deposited data

How the results depend on the processing

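The 4 members at least 2-fold higher at peak and Il34 as the only one lower were the same under library totals, DESeq2 size factors, upper quartile scaling, pseudocounts of 1 and 5, FPKM ratios and a minimum of 10 counts. A minimum of 200 counts left 0 lower members, because Il34 has 65 counts, and with no filter Csf2 joined the higher ones on 3 counts. Log2 ratios ranged over these alternatives from 1.94 to 2.15 for Csf1, 1.65 to 1.85 for Csf2ra, 1.41 to 1.61 for Csf2rb, 1.03 to 1.23 for Csf2rb2, -0.68 to -0.47 for Csf1r and -1.86 to -1.50 for Il34. Upper quartile scaling moved the median of all genes by -0.14. With a replicate block, whose meaning the labels do not give, limma gave 57 higher and 430 lower calls at gene ends and 4 higher and 148 lower calls in gene bodies. For edgeR these were 17 higher and 274 lower at gene ends and 59 higher and 583 lower in gene bodies. None of the members passed under the block or any other alternative (lowest adjusted p = 0.108, edgeR with the block, Csf1r body). Deviations of same-numbered libraries correlated at 0.149 over gene ends and 0.125 over gene bodies, from 2 pairs, which does not establish a pairing. Gene starts alone gave 1 call higher, no member. Leaving out each library in turn gave from 0 to 0 calls at gene ends and gene bodies. The Csf1r body change (1.43) became 0.22 without naive replicate 2 and 2.65 without naive replicate 1, and the Il34 gene end change (1.60) became 0.82 and 2.39 without these libraries. In RNA, depth limits Csf2 and Il34, and 1 library per condition limits each ratio.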
